A study of Mus musculus with 9 samples.

Results

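The 9 genes described here, Mt1, Mt2, Col6a6, Gxylt2, Cacna1d, Mllt3, Daam2, Fras1 and Bcl2l11, were picked by name for higher RNA in Sox9-deleted fetal testes than in control testes, several of them also for higher RNA than in ovaries. All 9 were found among the 15300 genes of the deposited tables. RNA sequencing covered gonads of C57BL/6 mouse embryos at E13.5 (E, days of embryonic development), freed of the mesonephros, in 3 groups of 3 samples. XY-KO samples were testes with the genotype AMH-Cre; Sox9flox/flox, in which the AMH promoter drives Cre recombinase in Sertoli cells. XY-WT samples were testes and XX-WT samples were ovaries, and both carried Sox9flox/flox and were labelled wildtype, so the floxed alleles were common to all 3 groups. The labels name Cre in XY-KO only, so an effect of Cre itself and an effect of the deletion cannot be told apart. Whether a sample was a single embryo or a pool is not given in the sources used here.

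SOX9 is the transcription factor that turns the supporting cells of the XY gonad into Sertoli cells, and in the XX gonad the same precursors become pre-granulosa cells. A gene whose RNA is higher without Sox9 can be one that ovaries also express at a high level, or one that stands above testis and ovary alike. The 9 genes have little in common by function. They encode metal-binding proteins (Mt1, Mt2), extracellular matrix (Col6a6, Fras1), an actin regulator (Daam2), a death factor (Bcl2l11), a chromatin reader (Mllt3), a glycosyltransferase (Gxylt2) and a calcium channel (Cacna1d).

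Higher RNA in XY-KO than in XY-WT was called for 8 of the 9 genes (0.699% of all genes were) and not for Mt2, whose XY-KO level was the lowest of the 3 groups, with a call against ovaries only. XY-KO exceeded both controls for Mt1, Col6a6, Daam2, Fras1 and Bcl2l11, stood at the ovary level for Mllt3, and lay between testis and ovary for Cacna1d and Gxylt2. Every fold change, standard error (SE) and p-value below comes from the authors' deposited tables of group against group, made with limma, or was computed from them, and is on the log2 scale unless called a fold. Each group has n = 3. A gene is called when its limma adjusted p, corrected by Benjamini-Hochberg over all genes, is under 0.05. Some counts use an unadjusted limma p under 0.05. Their share over all genes was not computed, so no excess is read from them. Group levels are on a log2 scale that, from its range, was read as log2 CPM (counts of reads relative to library size). They were derived from the deposited mean and fold changes by giving the 3 groups equal weight. They are not divided by gene length, so they are compared between groups and not between genes. Values of single samples were not used here, so the depth behind each value is unknown and overlap between samples of different groups was not assessed.

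Sox9 itself was 2.76 lower in XY-KO than in XY-WT in the authors' deposited table (SE 0.172). Some Sox9 RNA remained, since XY-KO was 1.71 above XX-WT (SE 0.235, limma adjusted p 8.14e-05). In bulk gonads, fewer cells of a type and less RNA per cell cannot be told apart.

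Because XY-KO against XY-WT chose the genes, its values are a description. In that comparison the authors' deposited table called 8 of the 9 higher and 0 lower, where 0.699% of all genes were called higher and 1.57% lower. Among the 107 genes called higher, ordered by fold change from the largest, Mt1 stood at place 22, Col6a6 at 32, Gxylt2 at 35, Cacna1d at 40, Mllt3 at 47, Daam2 at 50, Fras1 at 62 and Bcl2l11 at 91. Ordered by moderated t instead, Mllt3 was at place 1 of all 15300 genes, Daam2 at 3 and Col6a6 at 4. The selection named no threshold, and the smallest member difference among those called was the 0.72 of Bcl2l11. The comparison with ovaries, XY-KO against XX-WT, was also used in part to pick the genes. There 5 of the 9 were called higher, against 9.16% of all genes, and 3 were called lower, against 9.11%.

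**Figure D1:**
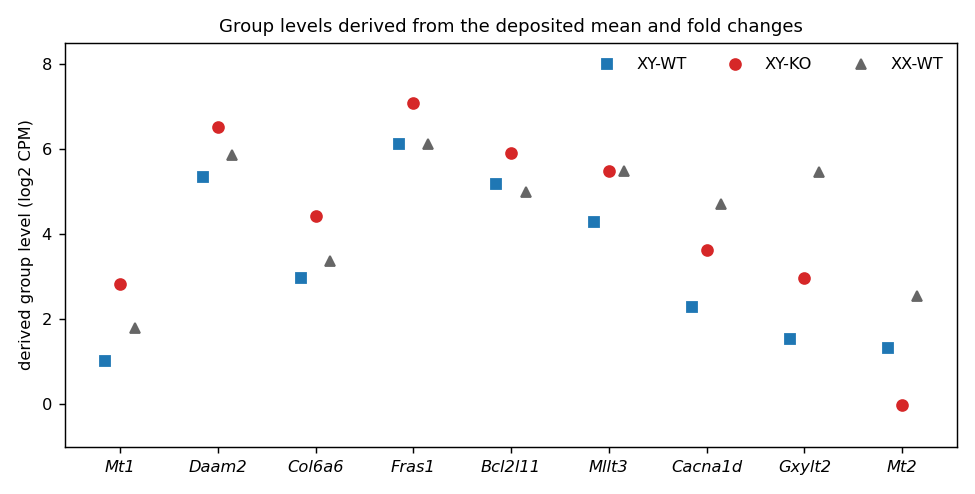
Derived group levels of the 9 genes, in log2 CPM on the vertical axis, for XY-WT (squares), XY-KO (circles) and XX-WT (triangles). XY-KO is the highest group for Mt1, Daam2, Col6a6, Fras1 and Bcl2l11, lies beside XX-WT for Mllt3 and between the controls for Cacna1d and Gxylt2, and is the lowest group for Mt2.

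Mt1 and Mt2 encode metallothioneins, small cysteine-rich proteins that bind zinc and copper and are induced by metals, glucocorticoids and oxidative stress. Induction by metals acts through short metal response elements in their promoters. The pair lies side by side on mouse chromosome 8 (GRCm38), Mt2 (ENSMUSG00000031762) at 94172664 to 94173568 and Mt1 (ENSMUSG00000031765) at 94179082 to 94180327, both on the plus strand and 5.51 kb apart. Their promoter windows, from RefSeq on GRCm38.p6, run from 250 bases before to 50 bases after the RefSeq start site at chr8:94178839-94179138 for Mt1 and chr8:94172368-94172667 for Mt2. They are shown because the neighbours differed in direction. The capitals mark each match to TGCNCNC on either strand. This pattern is looser than the core of the metal response element, TGCRCNC (R is A or G). Some matches, such as TGCTCTC in Mt2, meet only the looser pattern, and matches to the core itself were not counted.

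Mt1: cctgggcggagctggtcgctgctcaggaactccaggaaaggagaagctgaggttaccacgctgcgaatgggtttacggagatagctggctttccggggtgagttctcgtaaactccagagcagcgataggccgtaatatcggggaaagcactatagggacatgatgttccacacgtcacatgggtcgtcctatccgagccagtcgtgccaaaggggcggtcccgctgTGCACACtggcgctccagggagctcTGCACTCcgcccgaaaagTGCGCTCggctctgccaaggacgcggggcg

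Mt2: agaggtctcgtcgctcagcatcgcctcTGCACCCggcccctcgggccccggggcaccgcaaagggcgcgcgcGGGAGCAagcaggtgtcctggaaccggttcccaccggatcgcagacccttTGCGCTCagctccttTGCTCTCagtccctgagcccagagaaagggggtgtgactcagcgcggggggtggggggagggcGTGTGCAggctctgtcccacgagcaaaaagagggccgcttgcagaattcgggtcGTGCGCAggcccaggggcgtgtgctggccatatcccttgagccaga

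The Mt1 window held 3 such matches and the Mt2 window 6. In 32851 promoter windows of the same length, 7.1% held at least 3 matches and 0.225% at least 6. The pattern was not particular to these 2 genes. A Bcl2l11 window held 5 matches and a Cacna1d window 4. Of the 12 windows of the members, 8 held at least 1, beside 51% of all windows. A match is a description of the letters, not a bound site. The principal Mt1 transcript of GENCODE M21 starts 7 bases before the RefSeq site, and that of Mt2 starts 46 bases after it. Further protein-coding transcripts start 122 and 152 bases after the site for Mt1 and 242 bases after it for Mt2. These starts lie beyond the windows, so the match counts do not cover the bases next to them.

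Mt1 had a derived level of 1.03 log2 CPM in XY-WT, 1.79 in XX-WT and 2.82 in XY-KO. The authors' deposited table put Mt1 1.78 higher in XY-KO than in XY-WT (SE 0.326), 3.44-fold with a 95% interval of 2.13 to 5.57. Against ovaries, Mt1 was 1.02 higher in XY-KO (SE 0.267). XY-KO was therefore the highest group for Mt1, while the 0.76 between the controls had a 95% interval of 0.02 to 1.5 and, in the authors' deposited table, an adjusted p of 0.132.

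Mt2 went the other way, with a derived level of 1.33 in XY-WT, 2.54 in XX-WT and -0.01 in XY-KO. Its difference between XY-KO and XY-WT was -1.34 (SE 0.775, 95% interval -2.99 to 0.31, adjusted p 0.367), so the authors' deposited table does not call it. The 1.09 to 2.48 of Mt1 comes from the same comparison, which picked the genes for a rise. Whether Mt1 and Mt2 differ in their change was therefore not tested. Against ovaries Mt2 was 2.55 lower in XY-KO (the authors' deposited table gives -2.55, SE 0.704). The SE of Mt2 was larger than that of 99.6% of the 500 genes nearest to it in mean expression, whose median SE was 0.312. For Mt1 the same share was 90.2%, beside a median SE of 0.26. The coding sequences of the principal transcripts, 186 bases each, were identical at 148 positions (79.6%), and how reads matching more than 1 gene were counted is not given in the sources used here. An unmeasured antisense gene, Gm45774, overlaps Mt2, and whether counting used the strand is likewise not given.

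The other measured genes of metal handling gave no call between XY-KO and XY-WT. Of 19 measured zinc transporters and regulators, 0 were called by limma in either direction and 3 had an unadjusted p under 0.05, with a median of 0.04 beside -0.01 for all genes. The authors' deposited table gave Mtf1, the transcription factor that binds metal response elements, a difference of 0.03 (adjusted p 0.936). Slc30a1, a zinc exporter that MTF1 also induces, stood at 0.31 (adjusted p 0.265). Between the controls, the authors' deposited table had Mtf1 at 0.50 (adjusted p 0.0239) and Slc30a1 at -0.80 (adjusted p 0.00138), so Mtf1 was higher and Slc30a1 lower in ovaries. Target genes of other stimuli that act on metallothioneins were read in XY-KO against XY-WT. Among 9 glucocorticoid-induced genes (median -0.25), 9 targets of the oxidative stress factor NRF2 (median -0.14) and 9 hypoxia-induced genes (median -0.13), 0 were called by limma, and 1, 1 and 5 respectively had an unadjusted p under 0.05.

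Col6a6 and Fras1 encode large proteins of the extracellular matrix. Col6a6 (ENSMUSG00000043719, chromosome 9, 105687809 to 105828160) encodes an alpha chain of collagen VI, which forms beaded microfibrils around cells. Its derived level was 2.97 in XY-WT, 3.38 in XX-WT and 4.42 in XY-KO. The authors' deposited table gave 1.45 for XY-KO against XY-WT (SE 0.201), a 2.73-fold difference (95% interval 2.03 to 3.68), and 1.04 against XX-WT (SE 0.184). XY-KO thus stood above both controls, which differed by 0.41 (95% interval -0.04 to 0.87, adjusted p 0.177).

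No other measured collagen VI chain was called in XY-KO against XY-WT, while several were called higher against ovaries, as Col6a6 was. In the authors' deposited table for XY-KO against XY-WT, the widely expressed chains stood at -0.12 for Col6a1 (adjusted p 0.734), 0.02 for Col6a2 (adjusted p 0.976) and -0.07 for Col6a3 (adjusted p 0.89). Col6a5, the neighbouring gene 27.9 kb away, was at 0.05 (adjusted p 0.962). Of 10 measured collagen VI chains and partners other than Col6a6, 0 were called by limma there, with 1 at an unadjusted p under 0.05. Against XX-WT, 6 of those 10 were higher in XY-KO and 0 lower, beside 9.16% and 9.11% of all genes. They included Col6a1 at 0.84 (adjusted p 0.00271), Col6a3 at 0.96 (adjusted p 0.00808) and Col6a4 at 1.67 (SE 0.486, adjusted p 0.0249), from the authors' deposited table. Derived levels of Col6a4 were low, at -0.17 in XY-WT, 0.19 in XY-KO and -1.48 in XX-WT. Between the controls 5 of those 10 were called lower in ovaries and 0 higher, beside 12.4% and 10.9% of all genes. Among the 5 were Col6a1 at -0.97 (adjusted p 0.000682) and Col6a3 at -1.03 (adjusted p 0.00373), per the authors' deposited table.

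Fras1 (ENSMUSG00000034687, chromosome 5, 96373955 to 96784728) encodes a protein that anchors epithelia to the tissue beneath, and its loss in mice causes the blistering of Fraser syndrome models. Derived levels of Fras1 were 6.11 in XY-WT, 6.12 in XX-WT and 7.09 in XY-KO. In the authors' deposited table the controls differed by 0.01 (95% interval -0.36 to 0.39, adjusted p 0.97). XY-KO exceeded XY-WT by 0.99 (SE 0.176), 1.98-fold (95% interval 1.53 to 2.57), and XX-WT by 0.97 (SE 0.176).

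FRAS1 works in a complex with the FREM proteins, is brought to the cell surface by GRIP1 and, with nephronectin, engages the integrin that contains ITGA8. None of the partners named next was called in XY-KO against XY-WT. The authors' deposited table gave Frem1 0.25 (adjusted p 0.376), Frem2 0.03 (adjusted p 0.963), Grip1 0.42 (adjusted p 0.278), Itga8 0.34 (adjusted p 0.233) and Npnt, the nephronectin gene, 0.11 (adjusted p 0.846). Of 7 measured partners, 0 were called by limma and 1 had an unadjusted p under 0.05. The partners did differ between the controls, with 4 of the 7 called higher and 2 lower in ovaries, beside 10.9% and 12.4% of all genes. Npnt was 2.66 higher there (adjusted p 1.3e-07), Frem2 1.74 higher (adjusted p 4.81e-05) and Frem1 0.97 lower, as the authors' deposited table has it at -0.97 (adjusted p 0.000157).

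Daam2 (ENSMUSG00000040260, chromosome 17, 49456022 to 49564343) encodes a formin, a protein that nucleates actin filaments and binds Dishevelled in WNT signalling. Its derived level was 5.35 in XY-WT, 5.87 in XX-WT and 6.52 in XY-KO. The authors' deposited table gave 1.17 for XY-KO against XY-WT (SE 0.156), 2.24-fold (95% interval 1.78 to 2.82), and 0.64 against XX-WT (SE 0.152). All 3 pairs of groups were called for Daam2, since ovaries exceeded control testes by 0.52 (adjusted p 0.0244).

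Daam1, the close relative of Daam2, stood at 0.17 in XY-KO against XY-WT (adjusted p 0.479) and at 0.45 in XX-WT against XY-WT (adjusted p 0.0109) in the authors' deposited table. Of 19 other genes of formins and planar cell polarity, 0 were called by limma between XY-KO and XY-WT, with a median of -0.08, and 3 had an unadjusted p under 0.05.

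Bcl2l11 (ENSMUSG00000027381, chromosome 2, 128126038 to 128162547) encodes BIM, a BH3-only protein that starts mitochondrial apoptosis by binding the survival members of the BCL2 family. For Bcl2l11 the derived level was 5.19 in XY-WT, 5.0 in XX-WT and 5.91 in XY-KO. The difference was 0.72 against XY-WT (SE 0.128), 1.65-fold (95% interval 1.37 to 1.99), and 0.92 against XX-WT (SE 0.128) in the authors' deposited table. The difference between the controls was not called, at -0.19 (95% interval -0.47 to 0.08, adjusted p 0.314).

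No other gene of the BCL2 family was called in XY-KO against XY-WT, with 0 of 11 past the limma threshold, 2 at an unadjusted p under 0.05 and a median of -0.28. The authors' deposited table put the survival genes Bcl2 at 0.16 (adjusted p 0.581), Bcl2l1 at -0.28 (adjusted p 0.501) and Mcl1 at -0.03 (adjusted p 0.923). The pore-forming effectors were at -0.61 for Bax (adjusted p 0.203) and -0.38 for Bak1 (adjusted p 0.534), and the BH3-only gene Bmf at -0.12 (adjusted p 0.825).

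Mllt3 (ENSMUSG00000028496, chromosome 4, 87769925 to 88033364) encodes AF9, a reader of acylated histones that joins the super elongation complex or the histone methyltransferase DOT1L. Mllt3 had derived levels of 4.28 in XY-WT, 5.48 in XY-KO and 5.49 in XX-WT. The authors' deposited table gave 1.2 for XY-KO against XY-WT (SE 0.125), 2.3-fold (95% interval 1.91 to 2.76). Ovaries exceeded control testes by 1.21 (SE 0.124, adjusted p 3.37e-06). XY-KO and XX-WT differed by -0.01, with a 95% interval of -0.26 to 0.23, so either group could be the higher by that much.

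The partners of AF9 were not called in XY-KO against XY-WT. The authors' deposited table gave the paralogue Mllt1 -0.21 (adjusted p 0.637) and Dot1l -0.47 (adjusted p 0.128). Of 15 other genes of these complexes, 0 were called by limma and 3 had an unadjusted p under 0.05.

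Cacna1d and Gxylt2 were higher in XY-KO than in control testes and higher still in ovaries. Cacna1d (ENSMUSG00000015968, chromosome 14, 30039939 to 30491455) encodes the pore of an L-type calcium channel, CaV1.3. Its derived level was 2.29 in XY-WT, 3.62 in XY-KO and 4.71 in XX-WT. The authors' deposited table gave 1.33 for XY-KO against XY-WT (SE 0.28), 2.51-fold (95% interval 1.66 to 3.8), and -1.09 for XY-KO against XX-WT (SE 0.214). Ovaries exceeded control testes by 2.42 (adjusted p 6.51e-06), 5.36-fold (95% interval 3.63 to 7.92). Chdh and Dcp1a lie within or across the Cacna1d locus on the other strand, and the authors' deposited table had them at 0.02 and -0.04 in XY-KO against XY-WT.

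Of the 15 other measured subunits of voltage-gated calcium channels, 0 rose and 1 fell in XY-KO against XY-WT by limma, while 6 had an unadjusted p under 0.05. Of those 6, 4 were on the higher side, and the list's median was 0.22 beside -0.01 for all genes. From the authors' deposited table, the 4 were Cacna1e at 1.15 (adjusted p 0.131), Cacnb4 at 0.69 (0.16), Cacnb2 at 0.59 (0.0866) and Cacna1c, described last. The fall was in an auxiliary subunit. In the authors' deposited table Cacna2d2 was at -1.43 (SE 0.173, adjusted p 0.000276). It was also lower in ovaries than in control testes, at -2.36 (adjusted p 3.94e-07). Cacna1c, the other L-type pore gene with wide expression, stood at 0.58 (adjusted p 0.194).

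Gxylt2 (ENSMUSG00000030074, chromosome 6, 100704734 to 100810913) encodes a xylosyltransferase that adds xylose to O-linked glucose on the EGF repeats of Notch receptors. The derived Gxylt2 level was 1.54 in XY-WT, 2.98 in XY-KO and 5.46 in XX-WT. XY-KO exceeded XY-WT by 1.44 (SE 0.312), 2.72-fold (95% interval 1.71 to 4.3), in the authors' deposited table. Ovaries exceeded control testes by 3.92 (adjusted p 9.42e-08), 15.2-fold (95% interval 9.96 to 23.1), and XY-KO was 5.59-fold below ovaries (95% interval 4.07 to 7.69).

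The enzymes that act with Gxylt2 were not called. In the authors' deposited table for XY-KO against XY-WT, its paralogue Gxylt1 stood at 0.16 (adjusted p 0.571), Poglut1, which adds the glucose, at 0.01 (adjusted p 0.984), and Xxylt1, which extends the xylose, at -0.57 (adjusted p 0.228). Of 20 other genes of Notch glycosylation and signalling, 0 were called by limma and 3 had an unadjusted p under 0.05. Between the controls, 5 of the 20 were lower in ovaries and 0 higher, beside 12.4% and 10.9% of all genes.

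**Figure D2:**
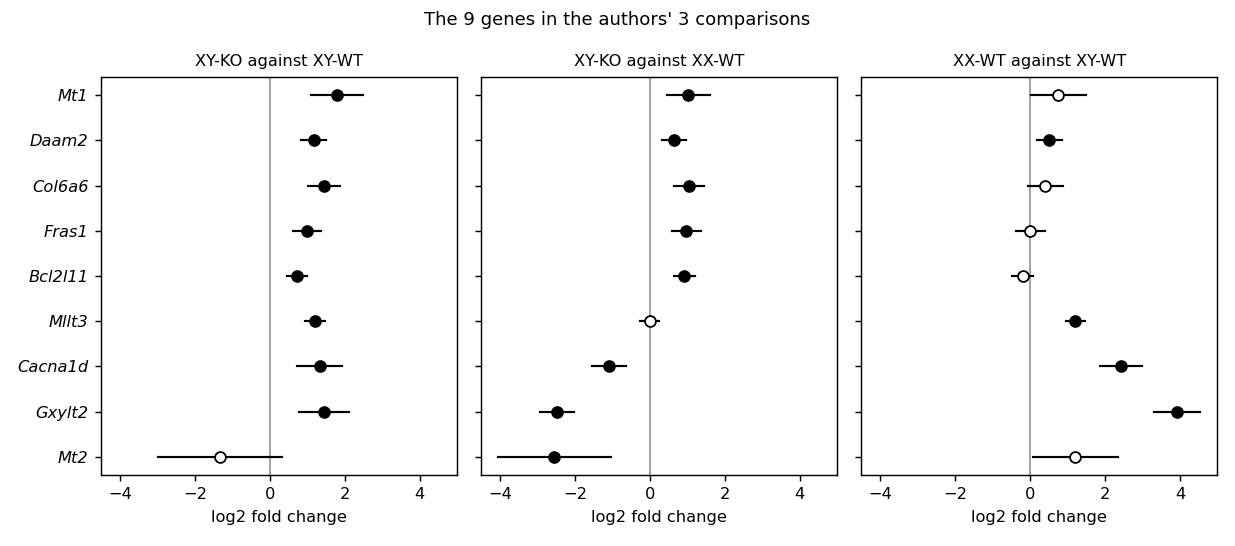
Log2 fold change of each of the 9 genes (horizontal axis) with its 95% interval in the 3 comparisons of the authors, n = 3 samples per group. Filled circles are called at a limma adjusted p under 0.05, and open circles are not. Intervals of the first 5 genes lie above 0 in both comparisons of XY-KO, and the interval of Mt2 is the widest in each panel.

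The sex difference of the controls, XX-WT against XY-WT, equals the difference between the comparisons that picked the genes and shares the samples of both control groups with them. Its counts are therefore a description and not independent of the choice. There 4 of the 9, Gxylt2, Cacna1d, Mllt3 and Daam2, were called higher in ovaries, beside 10.9% of all genes, and 0 were called lower, beside 12.4%. For the other 5, Mt1, Mt2, Col6a6, Fras1 and Bcl2l11, the adjusted p ranged from 0.119 to 0.97. Low values in the XY-WT samples would lift a gene in both comparisons, so the pair of changes for each gene is set side by side here and not correlated.

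**Figure D3:**
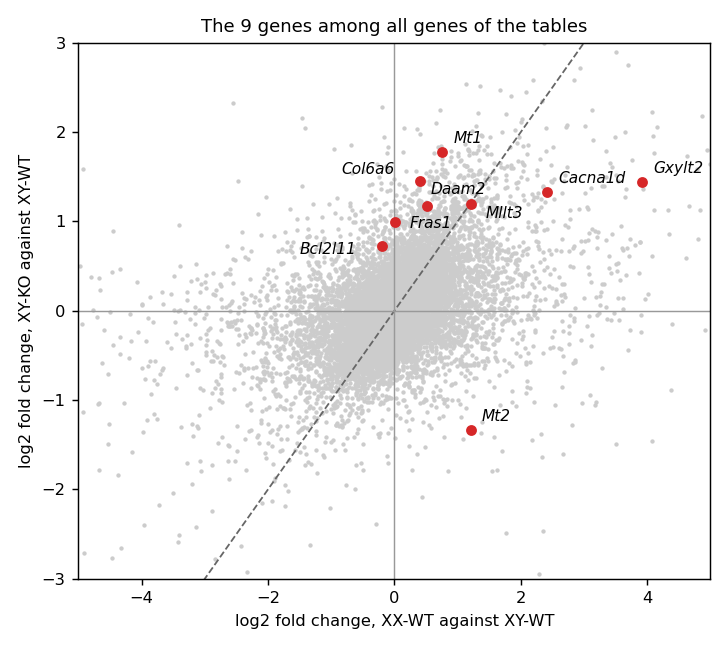
Log2 fold change of XY-KO against XY-WT (vertical axis) and of XX-WT against XY-WT (horizontal axis) for all genes (grey) and the 9 genes (red), and the dashed line marks equal levels in XY-KO and XX-WT. Mllt3 lies on the dashed line, Gxylt2 and Cacna1d to its right, Mt2 below 0, and the other 5 to its left. The axes share the XY-WT samples, and 95 genes fall outside them.

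The 143 other genes of the pathway lists, read together, gave 0 called higher and 1 called lower (Cacna2d2) in XY-KO against XY-WT, with 29 at an unadjusted p under 0.05 and a median of -0.07. Of all genes, 0.699% were called higher and 1.57% lower there, so these counts of calls lie near the background. An unadjusted p under 0.05 was common over all genes in that comparison. Ordered by moderated t from the top of 15300 genes, Slc30a1 (limma p 0.0504) stood at place 1350. Xxylt1, lower in XY-KO (limma p 0.0358), stood at place 14006. With p adjusted over the 3 comparisons together, the counts were 2 higher and 3 lower. In XX-WT against XY-WT the same 143 genes gave 16 called higher and 27 called lower, beside 10.9% and 12.4% of all genes.

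**Figure D4:**
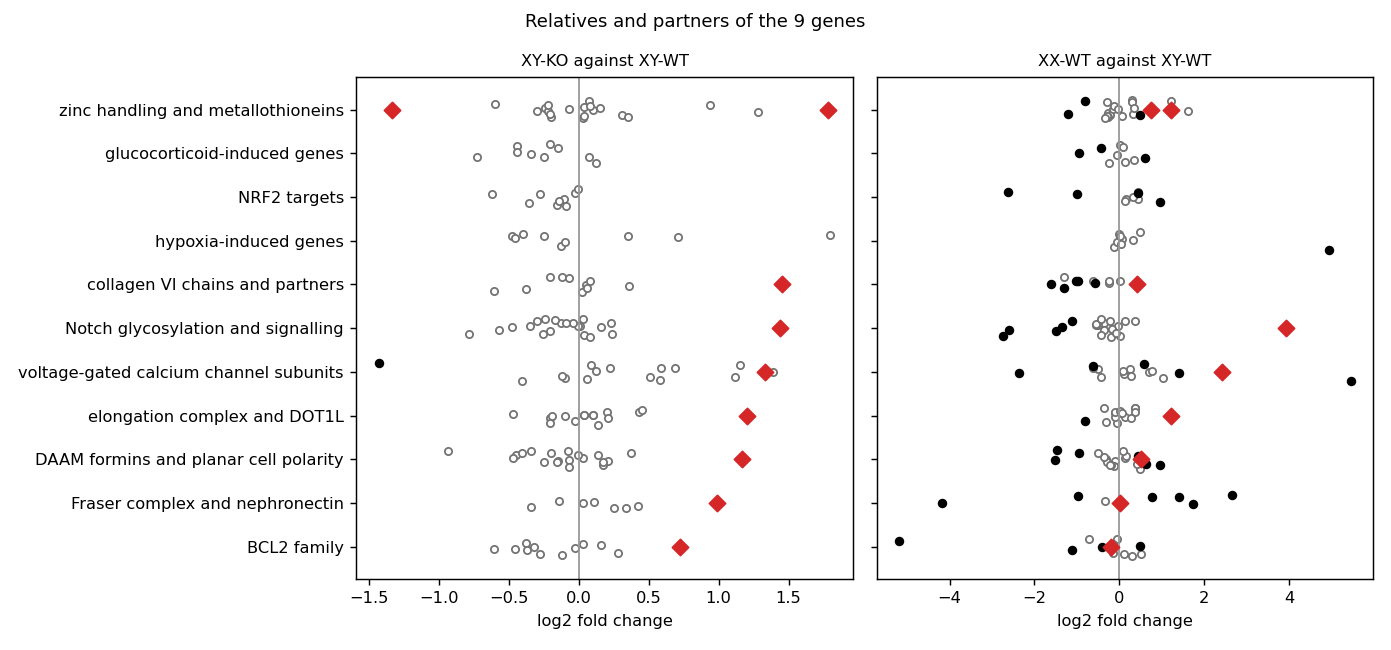
Log2 fold change (horizontal axis) of the relatives and partners of the 9 genes, by list, in XY-KO against XY-WT (left) and XX-WT against XY-WT (right). Red diamonds are the 9 genes, black points other genes called at a limma adjusted p under 0.05 and open points genes not called. In the left panel Cacna2d2, at -1.43, is the only called point that is not a diamond.

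Genes most like each member in pattern were sought over the 3 group means, by the distance between the pairs of fold changes XY-KO against XY-WT and XX-WT against XY-WT, among genes with a standard symbol whose mean expression reached the median of 3.19. The nearest to Cacna1d were Akr1c14 (distance 0.28) and Podxl (0.34), and to Gxylt2 Lrrn1 (0.60) and the pre-granulosa gene Runx1 (0.67). The nearest to Mt1 were Ppnr (0.48) and the muscle gene Ttn (0.64), and to Mt2 Bmyc (0.62) and Alpl (0.72). Long noncoding RNAs were among the nearest for the others. They were Kcnq1ot1 (0.11) and Neat1 (0.16) for Mllt3, Malat1 (0.08) and Mir99ahg (0.14) for Daam2, and Malat1 (0.37) for Col6a6. For Fras1 they were Airn (0.25) after Spaca6 (0.16), and for Bcl2l11 Mirg (0.09) after Dop1a (0.07). The patterns rest on 3 group means, so a small distance is only weak evidence of likeness. How many genes lie as close was not counted.

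Malat1, Neat1, Kcnq1ot1 and Airn are RNAs that stay in the nucleus. They stood, in the authors' deposited table for XY-KO against XY-WT, at 1.09 (adjusted p 0.0488), 1.16 (0.0513), 1.17 (0.0731) and 0.96 (0.0793). Meg3, a further nuclear RNA named after its value was seen, was at 0.74 (adjusted p 0.0241). In XX-WT against XY-WT the authors' deposited table called Neat1 (1.05, adjusted p 0.0149) and Kcnq1ot1 (1.10, adjusted p 0.02) higher. Malat1, Airn and Meg3 were not called there (adjusted p 0.181, 0.544 and 0.761). Between XY-KO and XX-WT, of these RNAs only Meg3 was called, at 0.82 (adjusted p 0.00193). Gene length along the genome moved with XY-KO against XY-WT, and less so with the other comparisons. Over genes at or above median expression, the median fold change went from -0.15 in the tenth with the shortest spans (median 4.13 kb) to 0.10 in the tenth with the longest (median 226 kb). The members were mostly long genes, with 7 of 9 above the median span of 22.6 kb. Cacna1d spans 452 kb, Fras1 411 kb, Mllt3 263 kb, Col6a6 140 kb, Daam2 108 kb, Gxylt2 106 kb and Bcl2l11 36.5 kb, against 1.25 kb for Mt1 and 0.905 kb for Mt2. With a trend on GC content, transcript length and span removed together, an alternative chosen after seeing the data, XY-KO against XY-WT was 1.01 for Mllt3, 0.89 for Fras1, 1.2 for Cacna1d, 1.47 for Col6a6 and 1.21 for Daam2, and the same 8 genes were called. Of these, 2 came close to the threshold. The recomputed limma adjusted p was 0.0425 for Cacna1d (0.0195 as deposited) and 0.0399 for Gxylt2 (0.0232 as deposited), whose fold change was 1.36. The part of nuclear RNA in these values was not tested.

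Genes next to the members were read as well. Of the 16 nearest measured protein-coding genes on either side, 0 were called by limma in XY-KO against XY-WT. Of all genes, 0.699% were called higher and 1.57% lower there, so 0 of 16 lies near that share. Their fold changes ranged from -0.33 to 1.25. The 1.25 was that of Slc24a2, 539 kb from Mllt3 (adjusted p 0.236 in the authors' deposited table). Pik3r4 lies 0.152 kb beyond the 3′ end of Col6a6 and Mocs1 0.587 kb beyond that of Daam2, and they stood at -0.11 (adjusted p 0.697) and -0.06 (adjusted p 0.892) in the authors' deposited table.

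Promoter windows were matched for 8 of the 9 genes, in 12 windows. The SOX core AACAAT, on either strand, occurred in 2 of the 12 (10.7% of all windows held it), and ACAAAG in 0 of the 12 (18.7% of all). The stretches around the matches are shown, with the motif in capitals, since SOX proteins bind such letters. The first lies in the window chr2:128127325-128127624 at -165 from the start of a noncoding Bcl2l11 transcript, and the second in chr14:30491107-30491406 at -211 from the start of the principal Cacna1d transcript, where the capitals are the reverse complement.

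Bcl2l11: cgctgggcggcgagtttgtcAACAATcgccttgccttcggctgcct

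Cacna1d: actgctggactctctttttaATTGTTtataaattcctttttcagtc

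Neither match says that SOX9 binds there, and windows without one may lie near sites outside these 300 bases.

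Markers of the cell types a gonad holds were read beside the members, from the same tables. Of all genes, 1.57% were called lower and 0.699% higher in XY-KO against XY-WT. There 7 of 12 Sertoli markers fell and 0 rose (median -1.13). Pre-granulosa markers had 0 of 9 higher and 1 lower (median 0.12), fetal Leydig markers 0 of 5 called (median 0.02), and interstitial markers 1 of 8 higher and 1 lower (median -0.12). Germ cell markers had 0 of 8 higher and 1 lower (median -0.35), which was Utf1 at -1.15 (adjusted p 0.0277) per the authors' deposited table. Surface epithelium markers had 1 of 7 higher and 0 lower (median -0.14), and the higher one was Podxl (adjusted p 0.000164). Endothelial, erythroid, macrophage and mesonephric markers had 0 called by limma of 9, 11, 6 and 6 measured, and 2, 3, 0 and 2 at an unadjusted p under 0.05. Against XX-WT, 9 of 12 Sertoli markers were called higher in XY-KO and 2 lower (median 3.15). Pre-granulosa markers had 0 of 9 called higher and 9 lower in that comparison (median -3.11). Of all genes, 9.16% were called higher and 9.11% lower in XY-KO against XX-WT.

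Skeletal muscle markers moved in the comparison that chose the members. Of 8 measured, 2 rose and 0 fell in XY-KO against XY-WT (median 1.59, range -0.02 to 2.90), beside 0.699% and 1.57% of all genes. An unadjusted p under 0.05 was found for 5. Myosin genes were the called ones, and the authors' deposited table had the heavy chain gene Myh8 at 1.66 (adjusted p 0.00148) and the light chain gene Myl1 at 2.58 (adjusted p 0.00607). The same markers had 4 of 8 called higher in XX-WT against XY-WT (median 1.69), beside 10.9% of all genes. Between XY-KO and XX-WT 0 were called (median -0.24, 0 at an unadjusted p under 0.05). Derived levels of Myh8 were 2.42 in XY-WT, 4.09 in XY-KO and 4.44 in XX-WT. Myod1, Myog, Ckm, Acta1, Tnnt3 and Chrna1, further markers of muscle, were not among the genes of the tables. The part of muscle RNA in the values of the members against XY-WT was not tested.

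**Figure D5:**
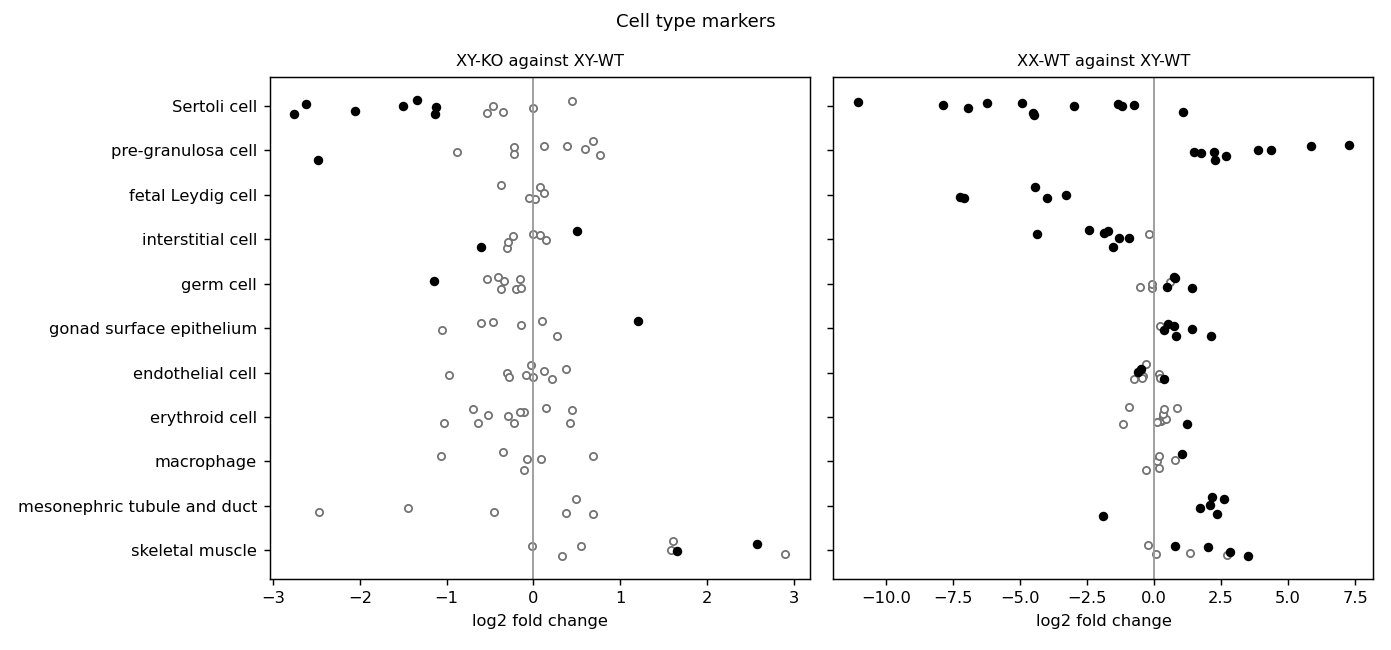
Log2 fold change (horizontal axis) of cell type markers, by list, in XY-KO against XY-WT (left) and XX-WT against XY-WT (right). Black points are called at a limma adjusted p under 0.05 and open points are not. In the left panel 7 of 12 Sertoli markers are called below 0 and 2 of 8 muscle markers above 0, and the horizontal ranges of the panels differ.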

How the data were processed

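Per the labels' protocols, SPIA amplification of RNA other than ribosomal RNA preceded paired sequencing (150 nt). Genome build GRCm38, limma 3.24.0, HTSeq 0.6.1p1, TopHat2 2.0.8 and Trimmomatic 0.30 appear in the submitters' processing notes. How replicates were weighted, which genes were filtered and whether counting used strand are not given in the sources used here. The authors deposited 3 tables over the same 15300 genes, with log2 fold changes and a mean log2 expression, and, per the file headers, a moderated t score, a log-odds score (not used), a p-value and an adjusted p-value. A symbol was found for 15192 genes.

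Nothing was refitted. Recomputed Benjamini-Hochberg values differed from the deposited ones by a relative 0.000769 at most, the 3 fold changes summed within 0.005, and t gave p at 15.27 degrees of freedom in each table. SE is the fold change divided by t, and 95% intervals use those degrees of freedom. These intervals give the uncertainty of a difference of group means, from limma's moderated variance. The spread between samples behind them may be technical. The scripts were tested on simulated data. Annotation came from GENCODE M21. Trends with GC content, transcript length and span were fitted by robust cubic regression. The members and gene lists were chosen with earlier results of these data known. Named genes are the 9 members, pathway list genes called in XY-KO against XY-WT, their close relatives (Mt3 and Bbc3 are not in the tables), the 2 genes nearest in pattern (1 of them is not reported here), and genes chosen after their values were seen (nuclear RNAs, cell type markers, Col6a4, Col6a5, calcium channel genes on the higher side, flanking and overlapping genes). Software comprised scipy 1.17.1, pandas 2.3.3, numpy 2.4.6, Biopython 1.88 and matplotlib 3.10.9 under Python 3.11.15.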

Additional observations from a re-analysis of the deposited data

How the results depend on the processing

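Alternatives were a stricter adjusted p (0.01), a 2-fold limit, adjustment over the 3 comparisons together, Bonferroni adjustment, the better expressed genes alone (median or more), fold changes centred on the median of all genes, and removal of trends in GC content and length, or also span, the last added after seeing the data. Among members, Bonferroni adjustment left 3 of the 8 called higher in XY-KO against XY-WT, and 1 of 5 higher and 1 of 3 lower in XY-KO against XX-WT; the 2-fold limit left 2 of those 5. For the other pathway genes in XY-KO against XY-WT, adjustment over the 3 comparisons together gave 2 higher and 3 lower in place of 0 and 1, and genes at or above median expression gave 0 lower. In XY-KO against XX-WT, 25 were higher (14 with the 2-fold limit, 9 by Bonferroni) and 17 lower (9 at 0.01, 6 with the 2-fold limit, 4 by Bonferroni, 11 at or above median expression). In XX-WT against XY-WT, 16 were higher (9 at 0.01, 6 with the 2-fold limit, 5 by Bonferroni) and 27 lower (16 with the 2-fold limit, 9 by Bonferroni). The remaining 78 counts moved by at most 1.5 times. Of 81 member fold changes recomputed with centring or trend removal, 79 kept their sign and their side of the threshold, and the 0.01 of Fras1 in XX-WT against XY-WT became -0.04 under both trend removals (adjusted p 0.9 and 0.891). No paired analysis was possible because the tables hold no values of single samples, and for the same reason no sample could be left out. The depth of each sample is unknown, which limits what can be said of low genes such as Mt1 and Mt2.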
